A study of Mus musculus with 9 samples.

Results

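The erythroid lineage genes described here are 10 genes that red cell precursors use, taken by symbol from the 23317 rows of the deposited table: Gata1, Klf1, Epor, Car1, Car2, Blvrb, Aqp1, Rhd, Ermap and Ank1. Each symbol matched 1 row, and all 10 genes passed the filter on low counts that left 14227 genes for testing. They were measured by low-input RNA sequencing of cells labelled as haematopoietic stem cells (HSCs), sorted from the bone marrow of wild-type mice, in 3 groups of 3 libraries of 1500 cells each. The groups were young HSC (2 to 4 months), old HSC (20 to 24 months) and old HSC given ABC294640, a sphingosine kinase 2 inhibitor. The protocol gives both age ranges, and they were assigned to the groups by the words young and old. The sources at hand name neither the gate of the sort nor the dosing. Whether each library stands for its own animal is nowhere stated, and p-values therefore speak only to the variation among these libraries, part of which may be technical.

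Red cells arise from HSCs through progenitors that are committed in steps. The transcription factor GATA1 works in a complex with TAL1, LMO2, LDB1 and its cofactor FOG1 (Zfpm1) to switch on erythroid genes, and KLF1, which binds CACCC boxes, activates the adult beta-globin gene and many genes of the red cell membrane. Erythropoietin, the hormone that keeps these precursors alive, acts through its receptor (Epor), the kinase JAK2 and the factor STAT5. HSCs and multipotent progenitors carry low levels of such transcripts before commitment, which is often called lineage priming.

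Total counts per library ran from 16663559 to 23254225. Genes with a count numbered 20285, 20158 and 20223 in the young libraries, 18521, 19182 and 18227 in the old and 18722, 18383 and 18958 in the treated. Old replicate 2, with 20966670 counts, was deeper than young replicate 2, with 19451086, but had fewer such genes. Whether this difference bears on the scarcer genes below was not tested. Among libraries of a group, the chi-square per degree of freedom of the counts over genes was 8.36 and 7.67 between young replicate 1, the deepest library, and its partners, and 2.23 to 5.38 in all other pairs, where counting error of independent reads alone would give about 1. All 15 markers of stem cells and early progenitors examined had a count in every library. Among them are Kit, Hlf, Meis1 and Procr, but also Cd34, Flt3 and Cd48, so that their sum is not one of stem cells alone. Of these 15, 8 were lower and 2 higher in old than in young HSC, with a summed level of 930 to 941 CPM (counts scaled to a common library size, per 1e+06) in young, 765 to 774 in old and 794 to 806 in treated HSC. Markers of late red cells were close to the lower end of the scale. Alas2, the red cell enzyme of the first step of haem synthesis, stood at 0.784 CPM and Slc4a1, the band 3 anion exchanger, at 0.265 CPM in young HSC. Summed over the 9 late red cell markers in the table, the level was 68.8 to 75.4 CPM in young, 49.4 to 55.5 in old and 49.1 to 50.8 in treated HSC, and no marker was at 0 in all libraries. Of the 8 that were tested, 6 were lower and 1 was higher in old than in young HSC. Of 14 megakaryocyte markers tested, 9 were lower and 0 higher, with a summed level of 569 to 606, 310 to 339 and 375 to 399 CPM in the groups in the same order and 1 marker, Pf4, higher with treatment, and of 15 granulocyte and monocyte markers 11 were higher and 3 lower. Of 9 mast cell and basophil markers tested, 6 were lower and 1 was higher, with a sum of 310 to 323, 284 to 288 and 307 to 319 CPM. The part of these shifts in the results below was not tested. In bulk samples, fewer cells of a type and less RNA per cell cannot be told apart.

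All 10 erythroid genes were lower in old than in young HSC, by 1.49-fold for Car2 to 2.42-fold for Ermap. All 10 passed an adjusted p of 0.05, against 19.8% of all genes tested that were called lower in this comparison. For every one of them the highest old library was below the lowest young library, which held in the same direction for 25.6% of all genes. The median log2 fold change of the 10 was -1.04, beside -0.03 over all genes. The 10th to 90th percentile of all genes ran from -0.84 to 0.36, further below 0 than above it. The share of all genes with a still lower log2 fold change ran from 4.3% for Ermap to 15.9% for Car2. Old HSC treated with the inhibitor stayed close to untreated old HSC. Of the 10 genes, 1 was called higher after treatment, Car1, by 1.14-fold, against 0.766% of all genes, and that call was lost without any one of 7 libraries.

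**Figure D1:**
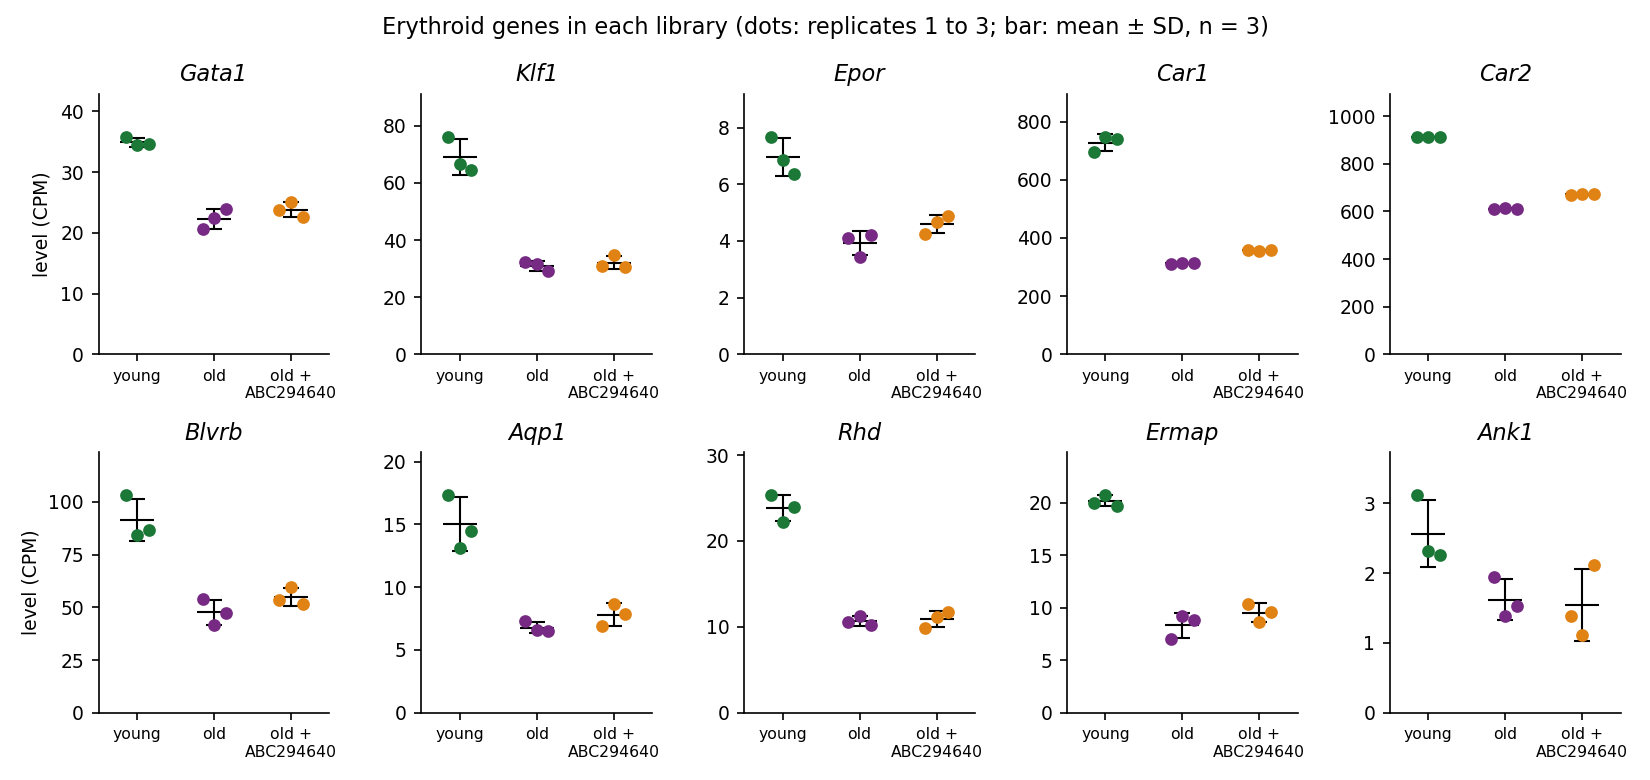
Level of each of the 10 erythroid genes in CPM (vertical axis, from 0) in the 3 young, 3 old and 3 treated old HSC libraries, with dots for libraries and bars for mean ± SD (n = 3). In every panel the 3 young libraries lie above all 6 old libraries, and old and treated libraries overlap for all genes except Car1, Car2 and Epor.

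Promoter sequence from RefSeq (GRCm38.p6) was at hand for 7 of the 10 genes, in 8 windows of 300 bases that run from 250 bases before to 50 after a start site. They are shown as background, since the genes of the factors GATA1 and KLF1 are themselves among the 10. Whether either factor acts on the other genes in these cells was not tested. No window was at hand for Car1, Car2 and Ank1. GATAA, the core of the GATA factor motif, or TTATC, its other strand, was found in 4 of the 8 windows, for Klf1, Rhd, Epor and Ermap, and in 25.4% of all 32817 windows of this length. CCNCNCCC, the core of the motif of KLF1 and related factors, or GGGNGNGG on the other strand, was found in 5 of the 8 windows, for Rhd, Epor, Gata1, Aqp1 and Blvrb, and in 49.5% of all windows. Both were found in 2 of the 8 windows, for Rhd and Epor, and in 8.67% of all windows. A match is a string of letters and no evidence of binding. The 70 bases below, written 5′ to 3′ on the gene's own strand, hold the GATAA match next to the start site, 80 bases before it for Klf1, 42 for Rhd, 54 for Epor and 67 for Ermap. Capitals mark GATAA or TTATC and, in Epor, a pair of overlapping CCNCNCCC matches.
Klf1, chr8:84901877-84901946, plus strand: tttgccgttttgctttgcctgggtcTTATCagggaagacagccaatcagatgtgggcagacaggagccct
Rhd, chr4:134864466-134864535, plus strand: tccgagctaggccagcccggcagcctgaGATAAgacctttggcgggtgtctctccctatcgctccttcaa
Epor, chr9:21963586-21963655, minus strand: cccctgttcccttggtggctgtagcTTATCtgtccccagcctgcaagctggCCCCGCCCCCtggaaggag
Ermap, chr4:119190018-119190087, minus strand: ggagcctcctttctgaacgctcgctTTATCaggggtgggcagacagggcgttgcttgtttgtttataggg

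What differs with age is the question of the first comparison. Of the regulators, Gata1 (ENSMUSG00000031162, chromosome X, 7959260 to 7978071 in GRCm38) stood at 35.8, 34.4 and 34.6 CPM in the young libraries, 20.6, 22.4 and 24.0 in the old and 23.7, 25.1 and 22.6 in the treated. The young libraries were the highest 3, and the old and treated libraries overlapped. Gata1 fell by 0.64 ± 0.073 on the log2 scale (± standard error) in old HSC, with adjusted p = 5.96e-07. Gata1 is on the X chromosome, where the median log2 fold change over 530 genes was -0.16, beside -0.03 over 13673 genes of the autosomes. The Y-linked genes Ddx3y (0.936 CPM in young and 38.9 in old HSC) and Eif2s3y (2.55 and 78.1 CPM) differed too. Summed over 4 Y-linked genes, the level was 8.25 to 10.3 CPM in young, 128 to 142 in old and 123 to 146 in treated HSC, and the labels give no sex. Age and the sex of the mice therefore cannot be told apart for any gene compared with young HSC. The words with age stand only for old against young HSC throughout. Xist was looked for as well, but no row of the deposited table has that symbol.

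Klf1 (ENSMUSG00000054191, chromosome 8, 84901928 to 84905291) was at 76.1, 66.5 and 64.4 CPM in young, 32.2, 31.6 and 29.0 in old and 30.9, 34.9 and 30.6 in treated old HSC. Every old library lay far below every young one, and the treated libraries overlapped the old ones. With age Klf1 fell by 1.16 ± 0.074 on the log2 scale (adjusted p = 1.02e-10), or 2.23-fold. The receptor gene Epor (ENSMUSG00000006235, chromosome 9, 21958897 to 21963506) was low in all groups, at 7.67, 6.87 and 6.35 CPM in young, 4.12, 3.45 and 4.22 in old and 4.24, 4.68 and 4.88 in treated HSC. Its 138 to 185 counts in young and 69 to 72 in old libraries make it one of the less precise values. Epor decreased by 0.84 ± 0.14 on the log2 scale (adjusted p = 0.000112), and all treated libraries lay just above all old ones.

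Of the enzymes, the carbonic anhydrases Car1 and Car2, which convert carbon dioxide to bicarbonate, were the most abundant of the 10 genes and made up 84.8% to 88.0% of their summed level in CPM. Car1 (ENSMUSG00000027556, chromosome 3, 14766216 to 14808368) was at 694, 747 and 740 CPM in young, 311, 314 and 315 in old and 359, 354 and 358 in treated HSC. The 3 groups were separate, with old HSC lowest. The difference of old from young was -1.21 ± 0.042 on the log2 scale (adjusted p = 7.27e-15). Its annotated transcripts share 20.1% of their 31-base words with Gm5843, so that some reads could belong to either, but Gm5843 itself stood at no more than 0.176 CPM in any library. Car2 (ENSMUSG00000027562, chromosome 3, 14886273 to 14900770), a carbonic anhydrase of the same gene cluster that many other tissues use as well, was at 913 CPM in each young library, at 612, 616 and 609 in old and at 668, 673 and 674 in treated HSC. These groups were also separate, and Car2 fell by 0.58 ± 0.037 on the log2 scale, less than Car1 (adjusted p = 1.17e-10). Blvrb (ENSMUSG00000040466, chromosome 7, 27447978 to 27466144), a flavin and biliverdin reductase of red cells, was at 103, 84.3 and 86.8 CPM in young, 53.9, 41.8 and 47.2 in old and 53.4, 59.5 and 51.6 in treated HSC. Young replicate 1 was well above its partners, and the old and treated libraries overlapped. Blvrb decreased by 0.94 ± 0.084 on the log2 scale with age (adjusted p = 1.78e-08).

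Of the membrane genes, Rhd, which encodes the Rh blood group protein (ENSMUSG00000028825, chromosome 4, 134864536 to 134896172), was at 25.3, 22.2 and 24.0 CPM in young, 10.6, 11.3 and 10.2 in old and 9.92, 11.2 and 11.7 in treated HSC. It fell by 1.15 ± 0.092 on the log2 scale with age (adjusted p = 3.34e-09). Ermap, the erythroblast membrane protein of the Scianna blood group (ENSMUSG00000028644, chromosome 4, 119175457 to 119190011), was at 20.0, 20.7 and 19.7 CPM in young, 7.0, 9.19 and 8.81 in old and 10.4, 8.62 and 9.56 in treated HSC. Ermap fell by 1.27 ± 0.11 on the log2 scale, the largest change of the 10 (adjusted p = 6.86e-09), although the changes of Car1, Klf1, Rhd and Aqp1 differ from it by about its standard error or less. The water channel gene Aqp1 (ENSMUSG00000004655, chromosome 6, 55336432 to 55348555), which endothelial cells use too, was at 17.3, 13.1 and 14.5 CPM in young, 7.3, 6.56 and 6.49 in old and 6.91, 8.69 and 7.86 in treated HSC. It decreased by 1.15 ± 0.12 on the log2 scale (adjusted p = 2.77e-07). Beside it, the summed level of 11 endothelial and stromal markers was 54.2 to 63.9 CPM in young, 42.4 to 49.2 in old and 47.5 to 48.7 in treated HSC, with 4 of 10 tested markers lower and 0 higher in old than in young, and their part in the Aqp1 value was not tested.

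Ank1, which encodes the ankyrin that ties the spectrin skeleton to the red cell membrane (ENSMUSG00000031543, chromosome 8, 22974844 to 23150497), was the scarcest of the 10. It stood at 3.11, 2.31 and 2.26 CPM in young, 1.94, 1.39 and 1.53 in old and 1.39, 1.11 and 2.11 in treated HSC, from 47.2 to 75.2 deposited counts in young and 25.2 to 33 in old libraries. Old and young libraries were separate by a small gap, and the treated libraries spread over a wider range than the old ones. Ank1 decreased by 0.67 ± 0.26 on the log2 scale, the least certain of the 10 (adjusted p = 0.0443). The call was lost with DESeq2 (adjusted p = 0.14) and without any one of 6 libraries, namely young replicate 1 (0.187), young replicate 2 (0.0538), young replicate 3 (0.0523), old replicate 2 (0.159), old replicate 3 (0.12) and treated replicate 1 (0.0588). Ank1 overlaps, among others, the antisense gene Gm15816 and the microRNA gene Mir486, which lies on the same strand as Ank1. Without strand the reads of Gm15816 and Ank1 cannot be told apart where they overlap, and strand would not separate those of Mir486.

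Young replicate 1 had the highest level of its group for 7 of the 10 genes, with Ank1 0.30, Aqp1 0.22, Blvrb 0.18 and Klf1 0.15 above the group mean on the log2 scale, while Car1 was 0.07 below its group mean there. Without that library, 9 of the 10 genes were called lower in old HSC, and the log2 fold changes ran from -1.27 to -0.49. Over the 45 pairs of genes, the correlation of the deviations from the group means over the 9 libraries was above 0 for 25 pairs and had a median of 0.05. It went both ways among the pairs, from 0.80 for Klf1 with Aqp1 and 0.78 for Aqp1 with Blvrb to -0.80 for Car1 with Klf1 and -0.83 for Car1 with Aqp1.

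Per kilobase of exon, the order of the levels in young HSC was Car1 (582 CPM per kb), Car2 (377), Klf1 (45.1), Blvrb (32.8), Rhd (15.0), Gata1 (14.3), Aqp1 (5.70), Ermap (3.81), Epor (3.50) and Ank1 (0.189). Of neighbours in this order, the young libraries overlapped between Rhd and Gata1 and between Ermap and Epor, and not between any other 2 neighbours. In old HSC the levels of Car1 (251) and Car2 (253) overlapped, as did those of Klf1 (20.2) and Blvrb (17.1) and of Epor (1.98) and Ermap (1.57). In treated old HSC the levels of Klf1 and Blvrb overlapped, and those of Car1 (286) and Car2 (277) did not.

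Ratios within a library do not depend on the scaling between libraries, and 5 were taken, with the pairs chosen after the values were seen. Per kilobase, the ratio of Car1 to Car2 was 1.47, 1.59 and 1.57 in young, 0.985, 0.989 and 1.00 in old and 1.04, 1.02 and 1.03 in treated HSC. The ratio of Klf1 to Gata1 was 3.15 ± 0.218 (SD, n = 3) in young, 2.22 ± 0.284 in old and 2.15 ± 0.0693 in treated HSC. That of Gata1 to Gata2, the factor that GATA1 replaces during erythroid commitment, was 1.94 ± 0.170, 1.5 ± 0.163 and 1.52 ± 0.161. Epor to Kit, the stem cell factor receptor, was 0.264 ± 0.0307, 0.155 ± 0.0148 and 0.176 ± 0.0113. Blvrb to Blvra, which encodes the other biliverdin reductase, was 1.13 ± 0.142, 0.618 ± 0.0621 and 0.734 ± 0.0414. All 5 ratios were higher in every young library than in any old one, for which a two-sided exact permutation test of 3 against 3 gives p = 0.1, the smallest it can give, or 0.125 after Benjamini-Hochberg adjustment over the 15 tests of these ratios. Treated and untreated old libraries were separate for Car1 to Car2 and Blvrb to Blvra (exact p = 0.1 each) and overlapped for Gata1 to Gata2 (exact p = 0.8), Klf1 to Gata1 (exact p = 0.7) and Epor to Kit (exact p = 0.2).

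**Figure D2:**
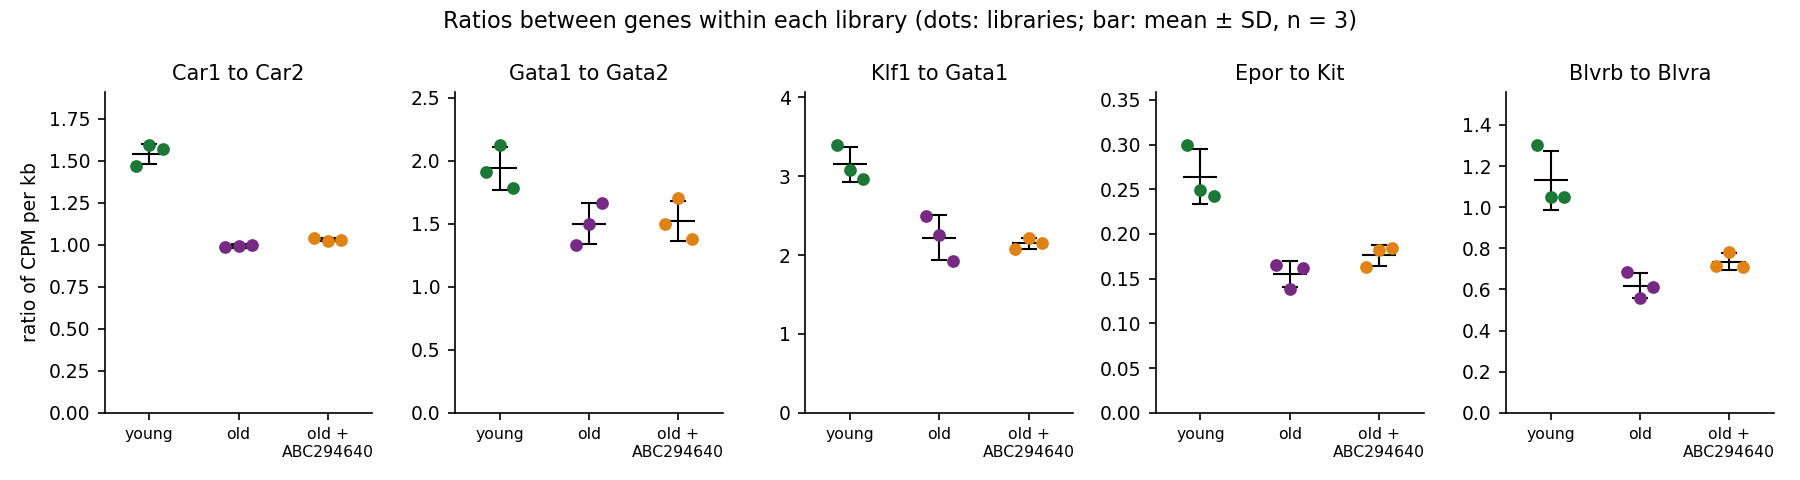
Ratio of the levels per kilobase of 2 genes (vertical axis, from 0) within each young, old and treated old HSC library, with dots for libraries and bars for mean ± SD (n = 3). All 5 ratios are higher in the 3 young libraries than in the 3 old ones, and Car1 to Car2 falls from 1.54 to 0.993.

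The comparison of treated with untreated old HSC asks what the inhibitor changes. Of the 10 genes 1 was called higher and 0 lower, against 0.766% and 0.429% of all genes tested. For 9 of the 10 the mean of the treated group lay between those of old and young HSC. The share of all genes with this order was not taken, and for Klf1 and Rhd the difference from old HSC was below its standard error. The median log2 fold change of the 10 was 0.16, beside 0.00 over all genes. At an unadjusted p under 0.05 there were 3 of the 10, Car1, Car2 and Blvrb, against 8.83% of all genes, and DESeq2 called 2 higher and 0 lower. This comparison and that of old with young HSC share the 3 old libraries. Car1 rose from 313 ± 2.34 to 357 ± 2.47 CPM (SD, n = 3), a log2 fold change of 0.19 ± 0.042 with adjusted p = 0.0255. That call ended without any one of the 6 old and treated libraries (adjusted p = 0.117, 0.074 and 0.074 without old replicates 1, 2 and 3, and 0.178, 0.129 and 0.0932 without treated replicates 1, 2 and 3) and without young replicate 3 (0.0525), while the log2 fold change stayed between 0.17 and 0.19 in all 16 other settings. Car2 stood at 612 ± 3.18 CPM in old and 672 ± 3.10 in treated old HSC (0.13 ± 0.037 on the log2 scale, adjusted p = 0.101), with libraries that did not overlap, and it passed the threshold with DESeq2 (adjusted p = 0.0117) and without young replicate 1 (0.0417).

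The other 8 genes did not pass in the treatment comparison under any setting that gave them an adjusted p, which leaves out DESeq2 for Epor, Aqp1 and Ank1 and the stricter filter for Ank1. Blvrb had a log2 fold change of 0.21 ± 0.087 (adjusted p = 0.458), Aqp1 of 0.21 ± 0.14, Epor of 0.24 ± 0.16 and Ermap of 0.19 ± 0.12. The values of the regulators Gata1 (0.09 ± 0.076) and Klf1 (0.05 ± 0.078) and of Rhd (0.03 ± 0.10) and Ank1 (-0.05 ± 0.28) were the closest to 0. Libraries of the 2 old groups did not overlap, with the treated ones higher, for Car1, Car2 and Epor, that is 3 of 10 genes, and for 8.34% of all genes.

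Treated old HSC remained below young HSC for all 10 genes. All 10 were called lower, against 18.5% of all genes, and the libraries of each gene were separate between the groups, which held in this direction for 24.7% of all genes. Treated old HSC held 45.9% of the young level for Rhd, 46.5% for Klf1, 47.3% for Ermap, 49.1% for Car1, 52.2% for Aqp1, 60.1% for Blvrb, 60.1% for Ank1, 66.0% for Epor, 68.1% for Gata1 and 73.6% for Car2. In untreated old HSC the corresponding shares were 44.9%, 44.8%, 41.3%, 43.1%, 45.3%, 52.2%, 63.3%, 56.4%, 64.0% and 67.1%. The call of Ank1 against young HSC (adjusted p = 0.0342) was lost without young replicate 1 (0.144), treated replicate 1 (0.115) or treated replicate 2 (0.16) and with DESeq2 (0.0991).

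**Figure D3:**
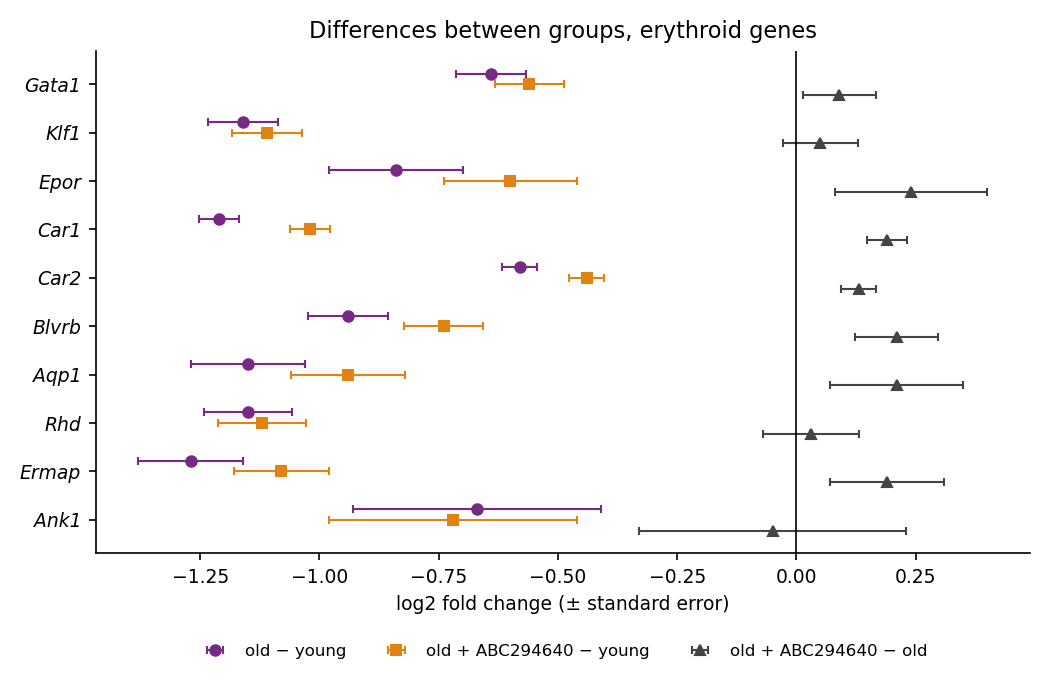
Log2 fold change (horizontal axis, with bars for the standard error) of each of the 10 genes for old against young, treated old against young and treated against untreated old HSC. The first 2 comparisons lie between -1.27 and -0.44 and the third between -0.05 and 0.24.

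Other genes of the same programme were taken from lists by role, to be read beside the 19.8% of all genes called lower and the 19.6% called higher with age. Of 18 erythroid transcription factors and partners tested, 10 were lower and 1 was higher in old than in young HSC, with a median log2 fold change of -0.26, and 2 were called higher with no filter, with DESeq2, without young replicate 3 and without old replicate 1. Gfi1b, a repressor needed for red cell and platelet formation, went from 87.6 ± 7.30 CPM down to 58.6 ± 3.17 (a log2 fold change of -0.58 ± 0.061 at adjusted p = 2.02e-07), Hemgn, a GATA1 target expressed in blood precursors, from 29.7 ± 1.72 to 20.9 ± 1.18 CPM, and Nfia from 32.7 ± 3.10 to 21.7 ± 2.65 CPM. Of other factors that work with or before GATA1, Tal1 had a log2 fold change of -0.31 ± 0.076, Ldb1 of -0.40 ± 0.085 and Gata2 of -0.28 ± 0.073, all of them past the threshold, and Zfpm1 of -0.39 ± 0.15, whose call was lost with DESeq2 (adjusted p = 0.158), with no filter (0.0845), in a fit of both groups alone (0.0577) and without any one of young replicates 2 and 3, old replicates 1 and 2 and treated replicates 1 and 2 (0.0532 to 0.172). Lmo2 (240 and 239 CPM) and Nfe2 (155 and 155 CPM) did not pass, and the gene called higher was Ikzf1, which encodes the lymphoid and myeloid factor Ikaros, from 87.3 ± 4.01 to 103 ± 1.29 CPM. With treatment 0 of the 18 passed, in edgeR and in DESeq2. Lmo2 was the 1 gene at an unadjusted p under 0.05 (log2 fold change -0.13 ± 0.046, adjusted p = 0.284).

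Genes of erythropoietin signalling mostly did not pass. Of 16 tested, 3 were higher and 2 lower in old HSC, with a median log2 fold change of -0.09, and 1 was called higher with the stricter filter of 5 CPM in 3 libraries, without old replicate 1 and without old replicate 2. Stat5a, one of the STAT5 genes, was lower at 14.2 ± 1.31 CPM against 21.6 ± 1.07 in young HSC (-0.60 ± 0.087 on the log2 scale, adjusted p = 1.52e-05) and Socs2, a feedback inhibitor, from 7.63 ± 0.139 to 4.35 ± 0.950 CPM. Jak2 was at 25 ± 2.38 and 22.3 ± 1.53 CPM (adjusted p = 0.133) and Kit at 119 ± 4.56 and 113 ± 2.80 CPM (adjusted p = 0.293). The 3 that were called higher were the kinase gene Lyn, the phosphatase gene Ptpn6 and the ubiquitin ligase gene Cbl, by 0.26 ± 0.063, 0.13 ± 0.051 and 0.27 ± 0.093 on the log2 scale. Lyn shares 22.8% of its 31-base words with other genes, so that its count is uncertain. With treatment 0 of the 16 passed in edgeR or in DESeq2, and 0 had an unadjusted p under 0.05, Bcl2l1 (0.16 ± 0.079) and Gab2 (-0.31 ± 0.16) coming closest.

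Red cell membrane and surface genes were lower most often. Of 22 tested, 15 were lower and 4 higher in old HSC, with a median log2 fold change of -0.75, and 7 were called lower among the fewer genes that a filter of 5 CPM in 3 libraries leaves. Slc14a1, the urea transporter of the Kidd blood group, was at 101 ± 2.83 CPM in young and 57.0 ± 1.14 in old HSC (-0.82 ± 0.049 on the log2 scale, adjusted p = 4.29e-11). Cldn13, a claudin of mouse erythroblasts, fell from 9.49 ± 0.813 to 4.49 ± 0.510 CPM and Rhag, the partner of Rhd in the Rh complex, from 16.3 ± 0.583 to 10.9 ± 1.46 CPM. Cd24a, a surface protein shared with many blood cells, rose to 417 ± 10.6 CPM from 251 ± 16.5 in young HSC (0.73 ± 0.051 on the log2 scale, adjusted p = 4.62e-10). With treatment Slc14a1 was called higher, at 65.9 CPM (log2 fold change 0.21 ± 0.051, adjusted p = 0.0483), a call that ended with RLE size factors (0.0642), with no filter (0.054), with the stricter filter (0.0556) and without any one of 8 libraries, namely young replicates 2 and 3 (0.0604 and 0.0811), old replicates 1, 2 and 3 (0.191, 0.136 and 0.199) and treated replicates 1, 2 and 3 (0.197, 0.28 and 0.131). At an unadjusted p under 0.05 there were 5 of the 22, among them Cldn13 (0.39 ± 0.14, adjusted p = 0.304).

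Globin, haem synthesis and iron genes went both ways, with 4 higher and 4 lower of 19 tested and a median log2 fold change of -0.01. Of the 8 enzymes of haem synthesis, Fech, the last step, rose from 46.5 ± 3.25 to 62.8 ± 4.85 CPM and Cpox fell from 15.8 ± 0.752 to 13.4 ± 0.893 CPM, and 6 did not pass. Tfrc, the transferrin receptor that takes up iron, rose to 63.5 ± 5.05 CPM from 37.4 ± 2.69 in young HSC (0.77 ± 0.071 on the log2 scale, adjusted p = 3.37e-08), whereas the haem-binding protein gene Hebp1 fell to 20.1 ± 1.97 CPM from 44.2 ± 2.70 (-1.14 ± 0.080 on the log2 scale, adjusted p = 4.49e-10). Of the globins, Hba-a1 fell from 9.34 ± 1.22 to 5.00 ± 0.643 CPM and Hba-a2 from 6.57 ± 1.01 to 3.00 ± 0.323 CPM, and Hbb-bt rose from 9.51 ± 1.30 to 14.2 ± 2.22 CPM. Their counts are uncertain, since other genes hold 59.4% to 92.6% of their 31-base words. For Hbb-bt that gene is the beta-globin gene Hbb-bs, and no row of the deposited table has the symbol Hbb-bs or Ahsp. Alas2 stood at 0.784 ± 0.299 and 0.594 ± 0.472 CPM. With treatment 0 of the 19 passed in edgeR or in DESeq2, and 0 had an unadjusted p under 0.05, Slc25a38 (0.14 ± 0.092) and Tfrc (-0.10 ± 0.070) coming closest.

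Of 15 enzymes of the red cell cytosol, 7 were higher and 3 lower in old HSC, with a median log2 fold change of 0.15, and 1 was called lower with the stricter filter. The glycolytic gene Gapdh (log2 fold change 1.27 ± 0.042) and the pentose phosphate genes G6pdx (0.60 ± 0.053) and Pgd (0.55 ± 0.058) rose, where other genes hold 28.1% of the words of Gapdh and 23.6% of those of G6pdx. Those that fell included Pklr, the pyruvate kinase of red cells and liver (from 4.22 ± 0.723 to 2.36 ± 0.403 CPM), and Prdx2, a peroxiredoxin abundant in red cells (from 412 ± 19.5 to 344 ± 13.6 CPM). With treatment 0 of the 15 passed, and 1 had an unadjusted p under 0.05, Gapdh, with a value of -0.13 ± 0.041 (adjusted p = 0.197, but 0.037 with DESeq2, 0.0445 in a fit of the 2 groups alone and 0.0192 without young replicate 1).

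**Figure D4:**
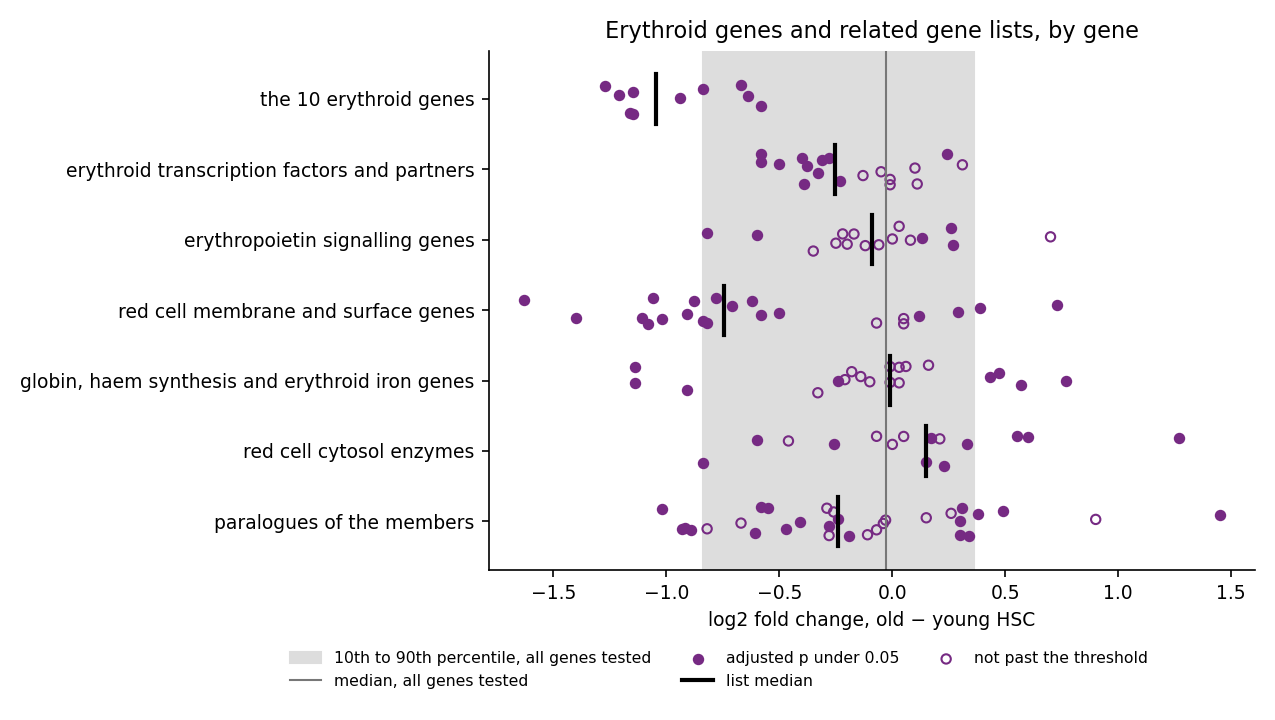
Log2 fold change of old against young HSC (horizontal axis) for each tested gene of 7 lists (rows), filled where the adjusted p was under 0.05, with a black bar for the list median and grey for the median and the 10th to 90th percentile of all 14227 genes. The 10 erythroid genes and the red cell membrane and surface genes have medians of -1.04 and -0.75, and those of the other lists lie between -0.26 and 0.15.

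Of 31 relatives of the 10 genes tested, 12 were lower and 7 higher in old HSC, with a median log2 fold change of -0.24. Over all genes the median was -0.03, and 19.8% were called lower and 19.6% higher. Of 11 other Klf genes tested, 7 were higher and 1 lower in old HSC. Klf13 rose from 171 ± 12.9 to 240 ± 2.89 CPM, Klf6 from 418 ± 12.9 to 528 ± 16 CPM and Klf2 from 156 ± 7.52 to 204 ± 8.49 CPM, while Klf1 fell, and the relative that fell was Klf4, from 46.1 ± 3.05 to 40.3 ± 2.59 CPM. Blvra stood at 70.9 ± 1.46 and 67.6 ± 1.82 CPM (log2 fold change -0.07 ± 0.050, adjusted p = 0.302). Of 9 other carbonic anhydrases tested, 4 were called lower and 0 higher. Car3 (-0.41 ± 0.14), Car5a (-0.89 ± 0.30), Car8 (-0.93 ± 0.37) and Car12 (-0.55 ± 0.21) passed at 1.12 to 6.84 CPM in young HSC, and DESeq2 called none of these 4 (adjusted p = 0.117, 0.0651, 0.168 and 0.151). Their edgeR calls rested on single libraries too. That of Car3 was lost without young replicate 2, old replicate 2 or old replicate 3 (0.0512 to 0.152), that of Car5a without young replicate 1, old replicate 1 or old replicate 3 (0.051 to 0.106), that of Car8 without any one library except young replicate 3 and old replicate 2 (0.063 to 0.183), and that of Car12 without any one except young replicate 1 and treated replicates 1 and 3 (0.0504 to 0.178). Car5b, Car7, Car9, Car10 and Car13 did not pass, and of these Car9 was the most abundant, at 20.1 ± 2.38 and 19.7 ± 1.46 CPM. Both other ankyrins fell, Ank2 from 12.1 ± 1.23 to 7.93 ± 1.2 CPM and Ank3 from 3.53 ± 0.839 to 1.86 ± 0.203 CPM. Of 3 other aquaporins tested, 2 were called lower, Aqp11 (-1.02 ± 0.14) and Aqp9 (-0.47 ± 0.11), and Aqp3 (-0.82 ± 0.33) did not pass. With treatment 0 of all 31 tested relatives passed, in edgeR and in DESeq2. At an unadjusted p under 0.05 there was 1, Klf2 (-0.15 ± 0.050, adjusted p = 0.248).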

How the data were processed

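The authors deposited 1 table that gives each gene's count in each library, and 56% of its non-zero values were whole. The submitters' processing notes name STAR 2.6.1d, HTSeq 0.10.0, Trim Galore 0.6.2, edgeR 3.24.3 and the build mm10, with no role or order. Per the labels' protocols, complementary DNA was amplified by 12 PCR cycles, so that reads are not independent molecules. The sources at hand do not say whether counting used strand.

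The step that made part of the deposited values fractional is not stated, and the values were taken to be expected counts. They were rounded and tested with edgeR 4.0.16 in R 4.3.3 (TMM normalization, default filter by group, quasi-likelihood test, a single group-only model of the 9 libraries, Benjamini-Hochberg adjustment over 14227 genes, threshold 0.05), which was first tested on simulated data. CPM use library sizes scaled by TMM. The standard error of a log2 fold change is its size divided by the root of the F statistic. Positions, exon lengths and shared 31-base words are from GENCODE mouse release M21 (GRCm38), which held all 23317 identifiers.

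The members, lists and tests were chosen with earlier results of these data known. The rule for named genes took all 10 members, of each list up to 3 genes of smallest p with age and 2 with treatment, a fixed set of partners, and the 5 genes most like the members. Genes named to complete a count of 5 or fewer were named after their values were seen. Other settings were no filter, a filter of 5 CPM in 3 libraries, DESeq2 1.42.0, RLE size factors, fits of 2 groups, the replicate number as a block, unrounded values, and leaving out each library in turn.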

Additional observations from a re-analysis of the deposited data

How the results depend on the processing

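Results were recomputed under up to 16 other settings, 9 of which leave out 1 library. The stricter filter removed Ank1, and DESeq2 gave no adjusted p with treatment for Ank1, Epor and Aqp1. Of 474 recomputed log2 fold changes of the 10 genes, 454 kept their side of the threshold, 18 lost a call and 2 gained one, and no called value changed sign. All of these changes concern Ank1 against young HSC and Car1 and Car2 in the treatment comparison. With DESeq2, 2 of the 10 genes were called higher with treatment. Leaving out 1 library gave 9 to 10 genes called lower for old and for treated old against young HSC, 0 to 2 called higher with treatment, and 0 in the opposite directions. Over all genes, 2818 were lower with age (1844 with DESeq2), 2633 were lower in treated old than in young HSC (1732 with the stricter filter), and treatment gave 109 higher and 61 lower (219 and 114 with no filter, 164 and 96 with 2 groups only). Leaving out 1 library gave 2522 to 3005 higher and 2155 to 2816 lower with age, 2371 to 2962 and 2054 to 2683 for treated old against young, and 17 to 175 and 31 to 111 with treatment, where young replicate 1 gave the highest counts and treated replicate 2 the lowest. The deviations of same-numbered old and young libraries had correlations of 0.063, 0.132 and 0.064, not all above 0.1, and each library correlated best with its own number, a hint from the data and not the design. With treated libraries the correlations were -0.081 to -0.02, and the numbers were not taken to pair the libraries. With the replicate block, 10 genes were lower with age, 1 was higher with treatment and 10 were lower in treated old than in young HSC, and the counts over all genes were 2799 higher and 2783 lower with age and 128 and 67 with treatment. At 25.2 to 75.2 counts per library in young and old HSC, Ank1 is the gene whose precision depth limits most.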

Other observations

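Among genes of at least 10 CPM that are not predicted genes or pseudogenes, those whose log2 level over the 9 libraries was most like the mean z-score of the 10 erythroid genes were Ifi27 (Pearson r = 0.998), Lyz2 (0.995), Cd52 (0.994), H2-Q6 (0.994) and H2-Q7 (0.994). These are descriptions over 9 libraries that share the same 3 groups, and the groups set most of each value. None of the 5 is an erythroid gene. Ifi27, which interferon induces, was at 234 ± 9.38 CPM in young, 117 ± 5.09 in old and 130 ± 3.73 in treated HSC (SD, n = 3). Lyz2, the lysozyme of macrophages and granulocytes, was at 658 ± 17.2, 461 ± 9.28 and 479 ± 11.3 CPM, and it shares 32.8% of its 31-base words with Lyz1. Cd52, a surface glycoprotein of leukocytes, was at 144 ± 1.97, 84.9 ± 1.77 and 91.8 ± 1.42 CPM. H2-Q6 and H2-Q7, class I genes of the major histocompatibility complex that are close relatives, so that reads could be split between them, were at 262 ± 4.77, 122 ± 2.76 and 131 ± 0.968 CPM and at 409 ± 42.9, 188 ± 6.81 and 206 ± 8.60 CPM. All 5 were called lower with age and 0 of them were called with treatment. Each of the 10 erythroid genes correlated with the mean z-score of the other 9 at r = 0.952 to 0.985, except Ank1 (0.755).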
